A study of Mus musculus with 9 samples.

Results

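The transcripts described here are those of liver endothelial genes, followed through every library of hepatic stellate cells sorted from livers injured with carbon tetrachloride (CCl4, a hepatotoxin). The list was set by name: it holds 34 gene names, of which 33 matched a row among the 35020 gene names of the deposited table (Eng2 matched none). No rule on measured values picked them, but they were chosen with earlier results of these data known. They served as a measure of endothelial cells carried over into the sorted stellate fraction. The study compared floxed Yap1 mice with and without an LratCre transgene, in which Cre is driven by the promoter of Lrat, a retinoid-storing enzyme of stellate cells. The labels put 5 libraries in the control group (floxed Yap1, no Cre: LYT004, LYT005, LYT014, LYT015 and LYT017) and 4 in the YAP-deleted group (floxed Yap1 with LratCre: LYT006, LYT008, LYT013 and LYT016). All animals were on the C57BL/6J background and all received CCl4, 6 injections 3 days apart, with cells taken 2 days after the last by density centrifugation and sorting on retinoid autofluorescence. By the labels, every YAP-deleted library carried the Cre transgene and no control did, so loss of Yap1 and presence of Cre cannot be told apart. Whether the libraries stem from different mice is not stated in the labels, so the p-values below reflect only the variation among libraries, which may be technical.

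Liver sinusoids are lined by endothelial cells that lie against the stellate cells across a thin perisinusoidal space. Sinusoidal endothelium is known for open pores without a diaphragm, for scavenger receptors that clear waste from the blood (stabilins, Fc receptors, lectins), and for growth signalling through vascular endothelial growth factor (VEGF) receptors and the angiopoietin receptor. Pan-endothelial genes such as Cdh5 (VE-cadherin), Pecam1 (CD31) and the transcription factor Erg mark endothelium in most organs. In bulk RNA, fewer cells of a type and less RNA per cell cannot be told apart.

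Promoter sequence is shown for 4 transcripts that stand for the different levels met below: Ehd3, the most abundant with a single promoter entry, and Kdr, Stab1 and Emcn, which belonged to the low, variable transcripts and were chosen after their values were seen. The sequences run 5′ to 3′ on the strand of the gene, end just before the annotated start, come from RefSeq on GRCm38.p6, and leave out bases that GENCODE calls untranslated region (3 for Kdr, 11 for Emcn). Capitals mark a match to a motif of the ETS family, to which Erg belongs.
Ehd3 (chr17:73804591-73804840, plus strand; inside a retained-intron transcript of Ehd3 in GENCODE M21): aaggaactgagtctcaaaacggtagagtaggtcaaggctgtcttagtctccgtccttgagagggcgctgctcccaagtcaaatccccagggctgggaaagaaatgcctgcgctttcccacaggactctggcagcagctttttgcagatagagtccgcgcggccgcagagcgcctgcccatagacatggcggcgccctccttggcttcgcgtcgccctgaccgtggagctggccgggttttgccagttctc
Kdr (chr5:75978459-75978705, minus strand, upstream of the gene): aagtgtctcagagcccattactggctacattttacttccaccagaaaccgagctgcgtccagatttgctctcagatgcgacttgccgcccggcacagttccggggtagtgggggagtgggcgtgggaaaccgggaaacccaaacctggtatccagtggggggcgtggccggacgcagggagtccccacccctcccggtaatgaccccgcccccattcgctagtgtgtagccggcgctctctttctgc
Stab1 (chr14:31168642-31168891, minus strand, upstream of the gene): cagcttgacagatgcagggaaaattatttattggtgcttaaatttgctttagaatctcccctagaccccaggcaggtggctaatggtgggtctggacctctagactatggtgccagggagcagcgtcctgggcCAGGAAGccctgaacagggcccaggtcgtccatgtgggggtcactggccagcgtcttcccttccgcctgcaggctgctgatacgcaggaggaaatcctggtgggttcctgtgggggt
Emcn (chr3:137340828-137341066, plus strand, upstream of the gene): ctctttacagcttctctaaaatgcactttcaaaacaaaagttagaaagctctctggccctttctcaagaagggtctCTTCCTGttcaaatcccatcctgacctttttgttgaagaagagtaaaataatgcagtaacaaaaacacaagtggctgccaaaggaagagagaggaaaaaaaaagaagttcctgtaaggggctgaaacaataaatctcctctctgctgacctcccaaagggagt
The letters CAGGAAG began at base -117 of Stab1, and their reverse complement began at base -174 of Emcn, counted back from the RefSeq start. Ehd3 and Kdr held none of the motifs searched. Over the 250 bases before the start, on both strands, an ETS motif (CCGGAAG or CAGGAAG) was found in 6 of 21 promoters of 17 matched transcripts (28.6%) and in 17% of all 32817 promoters. A SOX motif (ACAATGG or AACAATG, which can overlap each other) was in 1 of the 21 and in 5.35% of all, and the FOX motif GTAAACA was in 0 of the 21 and in 3.16% of all. These are matches of letters and no evidence of binding.

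Values below are normalised counts, that is, counts recovered from the deposited log2-like values over each library's size factor. Recovered totals ran from 14052502 (LYT017) to 31816055 (LYT013) counts, and a count of 0 allows up to 1.80 to 4.03 normalised counts, depending on the library. This limit is 3 counts and covers counting error only. Yap1 itself was 2902, 2915, 3653 and 3551 in the controls LYT004, LYT005, LYT015 and LYT017 and 642, 648 and 645 in the YAP-deleted LYT006, LYT008 and LYT016. LYT014, labelled control, had 618, and LYT013, labelled YAP-deleted, had 2530, each at the level of the other label, so their values are named apart from those of the other 7, except in group means, counts and fits over the 9 libraries as labelled. Yap1 over all 9 libraries as labelled had an exact two-sided permutation p of 0.0794 over 126 regroupings. Stellate markers summed to 1014090 to 1360850 in every library, macrophage markers to 749 to 2716, and hepatocyte markers to 403 to 1453.

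The endothelial transcripts covered a very wide range of abundance. The sum of all 33 ran from 94542 in LYT004 to 185947 in LYT013, or 0.523% to 0.977% of the counts of a library. Plvap and Ehd3 made up most of it, and without them the sum was 7563 (LYT005) to 14420 (LYT014). By mean over the 9 libraries, 6 transcripts stood at 1000 normalised counts or above (Plvap, Ehd3, Maf, Ramp2, Clec4g and Esam), 13 between 100 and 1000, 9 between 10 and 100, and 5 below 10 (Emcn, Erg, Sox18, Sox17 and Bmx). Bmx, a cytoplasmic kinase of arterial endothelium, was at 0 in all 9 libraries.

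Per kilobase of merged exon, which allows genes to be set against each other, Plvap, the protein of the diaphragms of fenestrae and caveolae, had a mean level of 50222 normalised counts. That level was of the size of Dcn (decorin) at 48870 and above Lrat at 9608, both stellate markers. Plvap ranked 11 and Ehd3, a membrane-trafficking ATPase, ranked 60 among 17199 tested genes by mean normalised count. Ehd3 followed per kilobase at 5477, Ramp2 (the partner of the adrenomedullin receptor) at 680, Clec4g (a sinusoidal C-type lectin) at 604, Esam (a tight-junction adhesion molecule) at 421 and the transcription factor Maf at 324. The defining endothelial genes were far below: Pecam1 at 54.4, Cdh5 at 13.8, Stab2 at 12.7, Kdr at 11.6 and Erg at 1.45 per kilobase. The list thus held transcripts at stellate-marker level beside transcripts near the counting limit, and Plvap and Ehd3 had 72917 and 17744 recovered counts even in LYT005, where Cdh5 had 2. The name of the list as a measure of endothelial cells therefore went against the levels of these abundant transcripts.

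**Figure D1:**
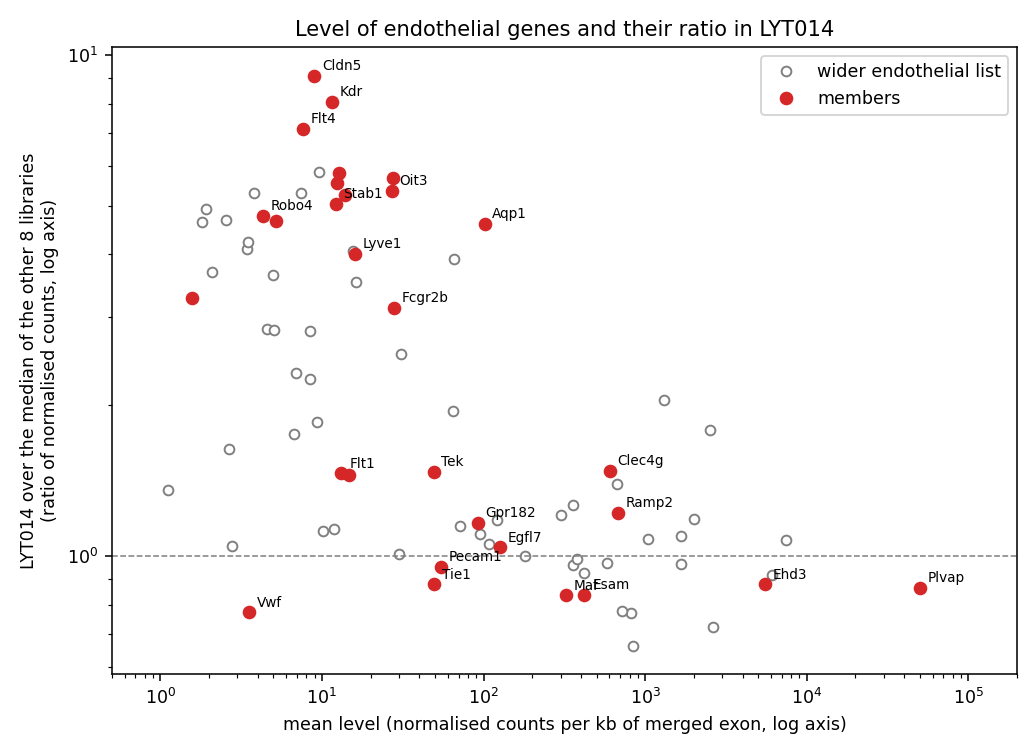
Mean level of each endothelial gene (x axis, normalised counts per kb of merged exon, log axis) against its level in LYT014 over the median of the other 8 libraries (y axis, ratio, log axis), with listed transcripts filled and genes of a wider endothelial list open, and genes left out where that median was below the counting limit. Kdr, at 11.6 per kb, lay at a ratio of 8.07, while Plvap, at 50222 per kb, lay at 0.86.

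A set of 18 transcripts, picked here because LYT014 was their highest library, is given before the other 14. Kdr (VEGF receptor 2; chromosome 5, 75932827 to 75978458, minus strand, GRCm38) had 56.5, 6.1, 63.1 and 118 normalised counts in LYT004, LYT005, LYT015 and LYT017, 482 in LYT014, 47.3, 8.9 and 68.4 in LYT006, LYT008 and LYT016, and 90.4 in LYT013. It was highest in LYT014 and lowest in LYT005, both labelled control, and the ranges of the groups overlapped. From 601 against 5 counts, LYT014 was 78.6 times LYT005 (95% counting interval 33.5 to 243). Without LYT014, Kdr still ran from 6.1 to 118. Of the 19 listed transcripts with a mean of at least 100, 6 spanned 10-fold or more from lowest to highest library. These were Kdr, Stab1, Stab2, Dnase1l3, Ptprb and Aqp1, beside 1.96% of 10173 genes of that abundance. The mean included LYT014, and for Kdr, Stab1, Stab2 and Dnase1l3 it reached 100 only with that library. The same high value thus admitted these transcripts and widened their span.

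Of the 5 scavenger and lectin receptors of the sinusoid, 4 were highest in LYT014, and the fifth, Clec4g, was highest in LYT013. Stab2 (stabilin-2, which clears hyaluronan; chromosome 10, 86841198 to 87008025, minus strand) had 62.8, 6.1, 88.6 and 181 in LYT004, LYT005, LYT015 and LYT017, 408 in LYT014, 50.7, 25.5 and 77.6 in LYT006, LYT008 and LYT016, and 99.3 in LYT013. Stab1 (stabilin-1) ran from 31.9 in LYT005 to 438 in LYT014, with 51.0 to 94.6 in LYT006, LYT008 and LYT016 and 108.9 in LYT013. The Fc receptor Fcgr2b, which takes up immune complexes, had 131, 74.8, 121 and 244 in LYT004, LYT005, LYT015 and LYT017, 376 in LYT014, 113, 91.8 and 120 in LYT006, LYT008 and LYT016, and 185 in LYT013. In these 3, LYT014 was highest, LYT005 lowest and LYT017 the next highest, the order of the other libraries differed, and the groups overlapped. Lyve1, a hyaluronan receptor, ranged from 10.2 in LYT008 to 131 in LYT014.

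Dnase1l3, a secreted nuclease of sinusoidal endothelium, had 41.5, 8.6, 94.2 and 185 in LYT004, LYT005, LYT015 and LYT017, 498 in LYT014, 80.7, 31.9 and 101 in LYT006, LYT008 and LYT016, and 233 in LYT013. LYT013 was second to LYT014 here, and the groups overlapped. Oit3 ran from 9.8 (LYT005) to 245 (LYT014), and Flt4 (VEGF receptor 3) from 4.9 to 240 in the same libraries. Aqp1, a water channel, ran from 40.5 (LYT005) to 821 (LYT014).

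Among the 9 junction and surface genes, 6 were highest in LYT014 (Cdh5, Ptprb, Cldn5, Mmrn2, Robo4 and Emcn), and Pecam1, Esam and Icam2 were not. Cdh5 (chromosome 8, 104101625 to 104144511, plus strand) had 21.3, 2.5, 28.3 and 91.3 in LYT004, LYT005, LYT015 and LYT017, 198 in LYT014, 47.3, 12.8 and 57.6 in LYT006, LYT008 and LYT016, and 62.8 in LYT013. Ptprb, the endothelial phosphatase that acts on VE-cadherin and Tie2, had 101, 33.1, 133 and 285 in LYT004, LYT005, LYT015 and LYT017, 589 in LYT014, 104, 12.8 and 129 in LYT006, LYT008 and LYT016, and 108 in LYT013. The YAP-deleted LYT008 was the lowest library for Ptprb and LYT005 for Cdh5, and for both genes the groups overlapped. Cldn5 (claudin-5) ran from 1.2 in LYT005 to 49.0 in LYT014, Mmrn2 from 1.2 to 74.6, Robo4 from 0 to 77.8 and Emcn from 2.55 (LYT008) to 19.3 (LYT014). The Stab1 and Emcn promoters shown above, each with ETS letters, and the Kdr promoter, with none, belonged to genes highest in LYT014. These genes were chosen after their values were seen, so no link between letters and library can be drawn. Of the other transcripts with ETS letters, Robo4 and Erg were highest in LYT014 and Egfl7 in LYT013.

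Erg, Sox17 and Sox18, transcription factors of endothelial identity, were near the counting limit, unlike Maf. Erg had 0, 0, 2.8 and 17.5 in LYT004, LYT005, LYT015 and LYT017, 20.9 in LYT014, 2.3, 0 and 1.7 in LYT006, LYT008 and LYT016, and 0 in LYT013. Sox18 had 2.1, 0, 1.9 and 5.4 in those 4 controls, 9.6 in LYT014, 4.6, 3.8 and 0.8 in LYT006, LYT008 and LYT016, and 1.2 in LYT013. Both were highest in LYT014, both fell below the counting limit in several libraries, and their groups overlapped. Sox17 did not exceed 2.5 outside LYT014, where it was 5.6.

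LYT014 was the highest library for 18 of the 32 tested transcripts (56.25%), against 9.26% of all tested genes. These were Kdr, Flt4, Stab1, Stab2, Lyve1, Fcgr2b, Oit3, Dnase1l3, Cdh5, Cldn5, Emcn, Ptprb, Robo4, Mmrn2, Erg, Sox17, Sox18 and Aqp1. LYT013, the deepest library, was highest for 5, or 15.6%, against 26.8% of all tested genes. LYT005 alone was lowest for 15, beside 8.63% of all tested genes, and LYT008 for 4, beside 5.26%. A low LYT005 was not particular to this list, as it alone was lowest for 11 of 15 macrophage and Kupffer cell markers. The 18 transcripts summed to 772, 237, 1014 and 2031 normalised counts in LYT004, LYT005, LYT015 and LYT017, 4683 in LYT014, 872, 356 and 1004 in LYT006, LYT008 and LYT016, and 1577 in LYT013. Without LYT014 the sum still ran from 237 in LYT005 to 2031 in LYT017. Since this set of 18 was formed from the values, its sum is a description and has no test.

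**Figure D2:**
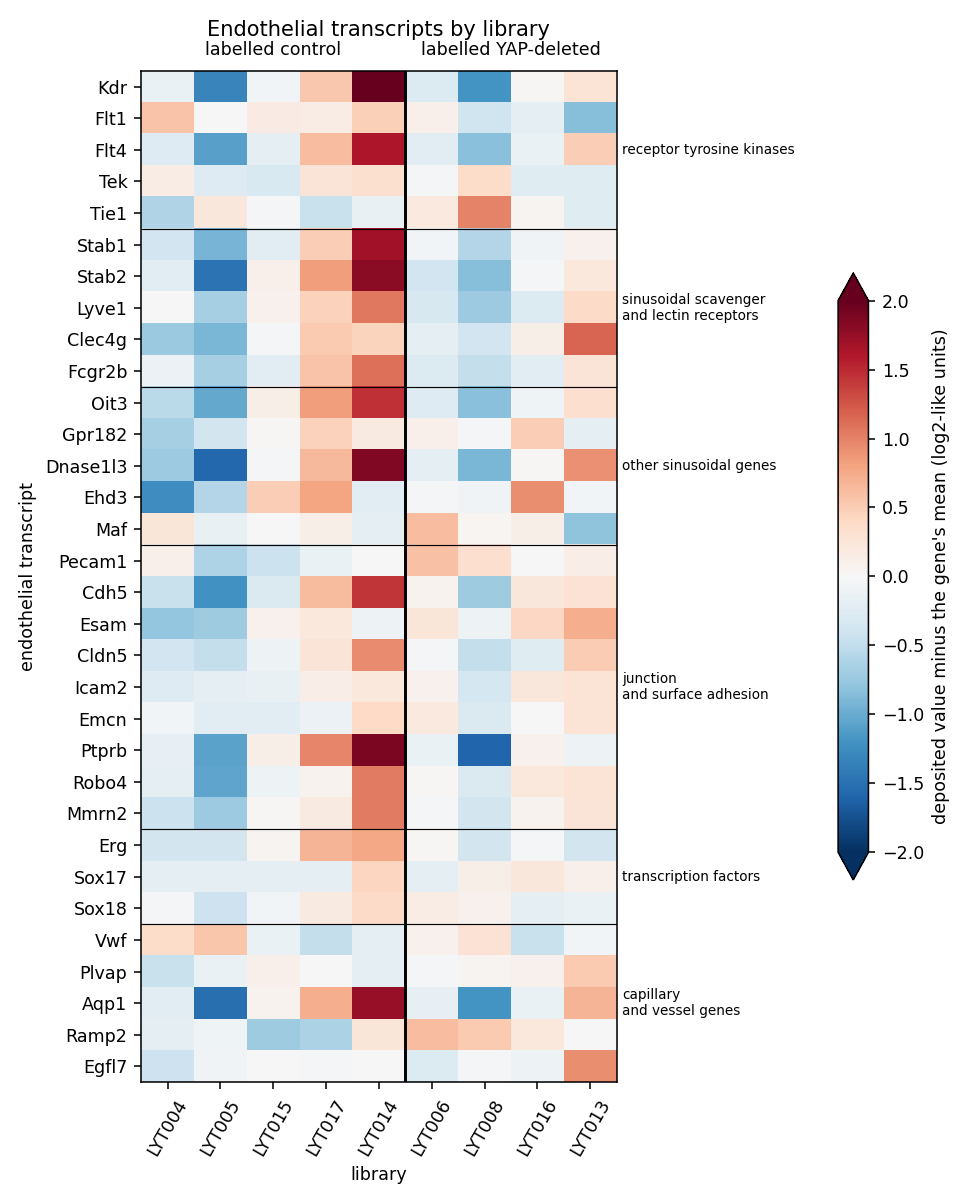
Log2-like level of each tested endothelial transcript (rows) in each library (columns, control left and YAP-deleted right), centred on its own mean over the 9 libraries and coloured from low to high. Rows are ordered by role. Of the 32 rows, 18 are highest in LYT014, among them Kdr, Stab2 and Cdh5, while those of Plvap, Maf and Pecam1 are not.

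Ratios within a library are given as a description, since depth and scaling cancel in them. The genes highest in LYT014 were grouped by their values, so narrower ratios among them follow in part from that choice. The ratios therefore cannot decide whether these transcripts kept a fixed proportion. Stab2 over Kdr lay between 0.85 (LYT014) and 2.86 (LYT008), and Flt4 over Kdr between 0.50 and 1.14 in the same libraries, although Kdr itself spanned 78.6-fold. The other ratios to Kdr computed for genes highest in LYT014 were wider, from 0.38 to 1.43 for Cdh5, 1.70 to 6.86 for Aqp1, 1.20 to 5.4 for Ptprb, 0.74 to 3.57 for Dnase1l3 and 0.91 to 5.71 for Stab1. Tie1 over Kdr ran from 0.42 (LYT014) to 57.4 (LYT008), Pecam1 over Cdh5 from 1.65 (LYT014) to 79.5 (LYT005), and Plvap over Cdh5 from 438 (LYT014) to 36459 (LYT005). The upper ends of these ratios fell in LYT005 or LYT008 and rest on few counts. Kdr had 5 recovered counts in LYT005 and 7 in LYT008, and Cdh5 had 2 in LYT005, below the counting limit of 3. The genes whose profile over the 9 libraries lay closest to Kdr, of 12795 with a mean of at least 10, were Stab2 (root mean square distance 0.21 on the log2-like scale), Aqp1 (0.23), Adgrf5 (0.26), Flt4 (0.26), Ptprb (0.27), Mrc1 (0.30), Stab1 (0.32), Oit3 (0.33), Dnase1l3 (0.34) and Cdh5 (0.35), with a median of 0.99 over all. Of these 10, 8 were on the list and 2 (Adgrf5 and Mrc1) on the wider endothelial list. Likeness to Kdr was looked up after its values were seen.

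The other 14 tested transcripts were highest in another library. Plvap (chromosome 8, 71497765 to 71511752, minus strand) had 71923, 89433, 105729 and 98222 in LYT004, LYT005, LYT015 and LYT017, 86750 in LYT014, 97118, 102400 and 104494 in LYT006, LYT008 and LYT016, and 142052 in LYT013. LYT014 was within the range of the other controls, at 0.970 times LYT005 (95% counting interval 0.961 to 0.979), and LYT013 was the highest. Ehd3 (chromosome 17, 73804134 to 73832094, plus strand) had 13814, 21763, 46078 and 56538 in LYT004, LYT005, LYT015 and LYT017, 27972 in LYT014, 32170, 31095 and 62260 in LYT006, LYT008 and LYT016, and 31582 in LYT013. Its lowest libraries were LYT004 and LYT005 and its highest LYT016, and the groups overlapped.

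Maf had 3071, 2330, 2606 and 2810 in LYT004, LYT005, LYT015 and LYT017, 2277 in LYT014, 4009, 2660 and 2800 in LYT006, LYT008 and LYT016, and 1462 in LYT013. LYT006 was its highest library and LYT013 its lowest. Clec4g had 785, 686, 1327 and 1973 in LYT004, LYT005, LYT015 and LYT017, 1849 in LYT014, 1174, 1026 and 1473 in LYT006, LYT008 and LYT016, and 3086 in LYT013. LYT005 was lowest for Clec4g as it was for Kdr, but the difference between LYT014 and LYT005 was 2.70-fold (2.46 to 2.96), against 78.6-fold for Kdr.

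**Figure D3:**
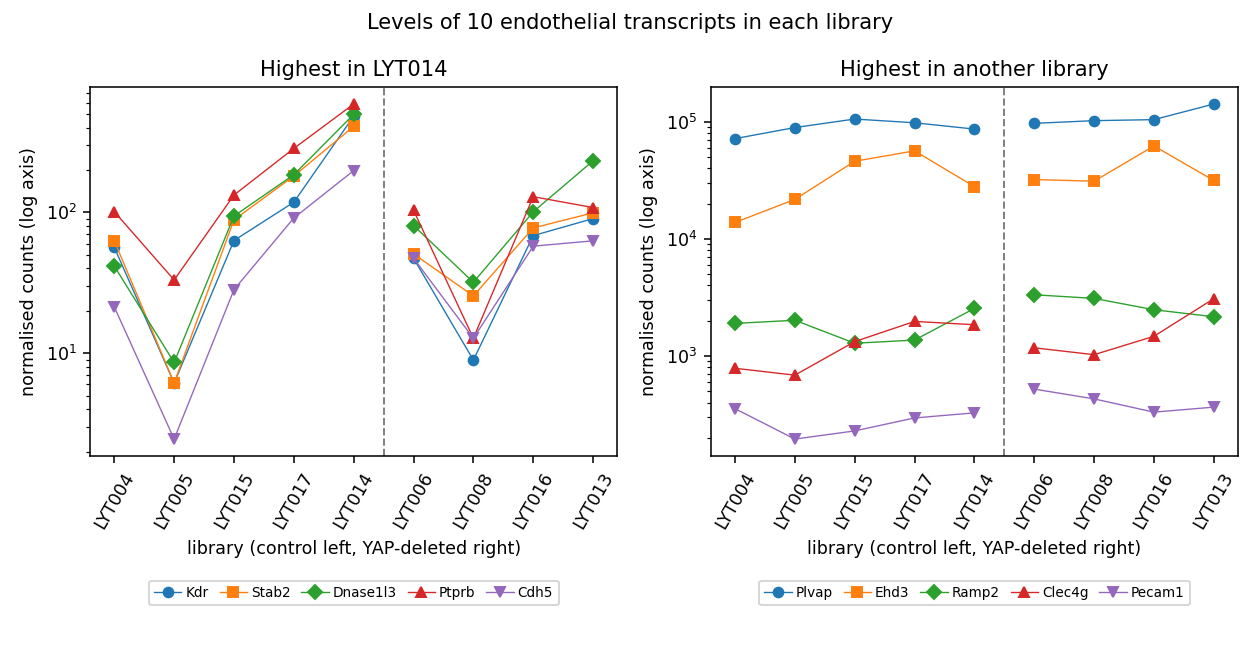
Normalised counts (log axis) of 5 transcripts that were highest in LYT014 (left) and 5 abundant or pan-endothelial ones that were not (right), 1 point per library, with lines only to guide the eye and controls left of the dashed line. Kdr runs from 6.1 in LYT005 to 482 in LYT014, while Plvap stays between 71923 and 142052.

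The angiopoietin receptor Tek (Tie2) had 258, 180, 173 and 281 in LYT004, LYT005, LYT015 and LYT017, 295 in LYT014, 219, 310 and 182 in LYT006, LYT008 and LYT016, and 182 in LYT013. Its relative Tie1 had 133, 278, 221 and 153 in the same 4 controls, 201 in LYT014, 271, 513 and 239 in LYT006, LYT008 and LYT016, and 185 in LYT013. LYT008, among the lowest libraries for Kdr, was the highest for both. Flt1 (VEGF receptor 1) had 277, 167, 196 and 193 in LYT004, LYT005, LYT015 and LYT017, 258 in LYT014, 186, 115 and 140 in LYT006, LYT008 and LYT016, and 71.8 in LYT013, so the YAP-deleted libraries lay low with 1 inside the control range.

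Pecam1 had 355, 195, 229 and 295 in LYT004, LYT005, LYT015 and LYT017, 327 in LYT014, 521, 430 and 331 in LYT006, LYT008 and LYT016, and 366 in LYT013. Only the control LYT004 exceeded a YAP-deleted library. Esam had 647, 679, 1220 and 1330 in those 4 controls, 1065 in LYT014, 1362, 1066 and 1544 in LYT006, LYT008 and LYT016, and 1946 in LYT013, with LYT008 inside the control range. Ramp2 (chromosome 11, 101246028 to 101259546, plus strand) had 1897, 2019, 1284 and 1367 in LYT004, LYT005, LYT015 and LYT017, 2548 in LYT014, 3334, 3102 and 2483 in LYT006, LYT008 and LYT016, and 2164 in LYT013. Without LYT013 and LYT014 its groups did not overlap. The remaining transcripts were Gpr182 (200 to 516), Egfl7 (311 to 878), Icam2 (14 to 41.3) and Vwf, the platelet-tethering factor of larger vessels (26.9 to 100.6).

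Between the labelled groups, 0 of the 32 tested transcripts passed the threshold (limma, Benjamini-Hochberg adjusted p under 0.05 over all 17199 genes), where 0% of all genes did. Adjusted p ran from 0.649 to 0.989. With voom, limma's count-based weighting, 0 passed as well. An unadjusted p under 0.05 was reached by 4, of which Ramp2, Pecam1 and Esam had positive differences and Flt1 a negative one, beside 7.22% of all genes. The groups overlapped for all 32, where 2.84% of all tested genes had groups that did not.

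On the deposited log2-like scale, YAP-deleted minus control with its standard error, Ramp2 had 0.61 ± 0.20, Pecam1 0.48 ± 0.17, Esam 0.58 ± 0.23 and Flt1 -0.61 ± 0.20 (n = 5 and 4, limma adjusted p 0.649 for each). Their mean levels, as mean ± SD, were 1823 ± 516 and 2771 ± 541 normalised counts for Ramp2, 280 ± 66.7 and 412 ± 83.5 for Pecam1, 988 ± 312 and 1480 ± 368 for Esam, and 218 ± 46.8 and 128 ± 47.6 for Flt1, control then YAP-deleted. Without LYT014 and LYT013, respectively, they were 269 ± 71.0 and 427 ± 95 for Pecam1, 969 ± 356 and 1324 ± 241 for Esam, and 208 ± 47.6 and 147 ± 35.9 for Flt1. The median difference over the 32 was -0.04, with 13 positive and 19 negative, and the median over all tested genes was -0.00. Plvap had 0.30 ± 0.23, Ehd3 0.35 ± 0.40, Clec4g 0.32 ± 0.37, Tie1 0.45 ± 0.25, Tek -0.07 ± 0.18, Fcgr2b -0.31 ± 0.32, Maf -0.02 ± 0.23, Erg -0.35 ± 0.25 and Sox18 -0.03 ± 0.15 (limma adjusted p 0.649 to 0.989). On scales that shrink few counts less, Erg had -1.33 (log2 of normalised count + 1) and -1.82 (voom), and Sox18 had -0.16 and -0.35. For the transcripts with wide spread, the standard errors were wide, as for Kdr at -0.53 ± 0.57, Stab2 at -0.47 ± 0.53 and Ptprb at -0.78 ± 0.54. Leaving out 1 library at a time gave -0.92 (without LYT005) to -0.05 (without LYT014) for Kdr and -0.89 to -0.07 for Stab2 in the same order. For Ptprb it gave -1.14 without LYT005, and -0.40 without LYT008 and without LYT014.

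Without LYT013 and LYT014, an omission chosen after the data were seen, 0 of 31 tested transcripts passed, where 0.0694% of 17292 genes did (12 genes, and 9 by voom). Limma's adjusted p over these 31 ran from 0.392 to 0.995. At an unadjusted p under 0.05 there were 3, all positive, namely Ramp2 (0.85 ± 0.18, limma adjusted p 0.392), Pecam1 (0.58 ± 0.20) and Tie1 (0.63 ± 0.27), beside 6.31% of all genes. Ramp2 was the only transcript whose groups did not overlap in these 7 libraries, beside 7.33% of all genes, with 1642 ± 370 (n = 4) in control and 2973 ± 440 (n = 3) in YAP-deleted. Ramp2 shares 1103 exon bases on the same strand with Vps25, which had a difference of 0.25 ± 0.19 in the 9 libraries, so reads of the pair may be split between them. Egfl7 shares 264 exon bases on the same strand with Gm20532, which had a mean of 0.15 normalised counts. Stab1, Gpr182 and Egfl7 overlap exons of Nt5dc2, Zbtb39 and Agpat2 on the opposite strand by 112, 74 and 64 bases. Sox17, Maf, Fcgr2b, Clec4g and Stab2 overlap opposite-strand exons of genes without values here, by 804, 440, 155, 146 and 141 bases. Whether counting used strand is not stated, so the values of these transcripts carry that uncertainty. The median difference over the 31 was 0.07, with 18 positive and 13 negative, beside -0.01 over all genes.

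**Figure D4:**
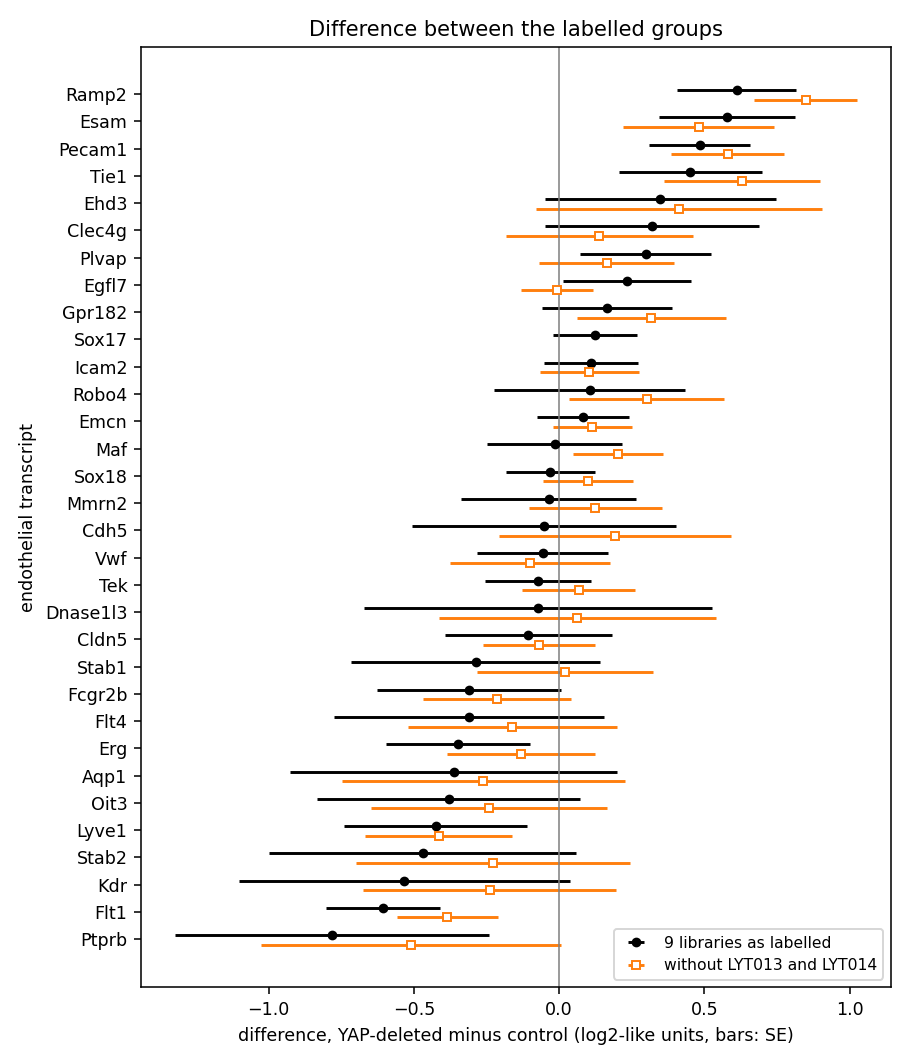
Difference of each tested endothelial transcript between groups (YAP-deleted minus control, log2-like units) with its limma standard error, for the 9 libraries as labelled and for the 7 without LYT013 and LYT014. Ramp2 lies at 0.61 and 0.85 in them, Flt1 at -0.61 and -0.38, and no transcript passed the threshold in either.

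Library codes fall into a low range (4 to 8) and a high one (13 to 17), and each holds both labels, although the labels do not call them batches. The median difference of the list was 0.26 within codes 4 to 8 and -0.29 within codes 13 to 17. Ramp2 had 0.70 and 0.48, Pecam1 0.72 and 0.26, Esam 0.81 and 0.51, and Flt1 -0.43 and -0.79, each with the same sign in both ranges. Kdr had -0.00 and -0.74, where the high range includes LYT014. Stab2 had a positive difference (0.23) within codes 4 to 8 and a negative one over all 9 libraries (-0.47).

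Cell cycle genes and markers of other cell types also differed between libraries. Cell cycle genes summed to 17280 in LYT004, 23028 in LYT005 and 14986 in LYT008, against 6127 in LYT014 and 1902 to 2827 in the other 5. Kdr had 56.5 in LYT004, 6.1 in LYT005 and 8.9 in LYT008. Macrophage and Kupffer cell markers, 15 of 15 tested and with 0 past the threshold, summed to 749 in LYT005 and 1665 in LYT014 within a control range of 749 to 2050, and to 1084 to 2716 in YAP-deleted. Hepatocyte markers were at their lowest, 403, in LYT014, in a control range of 403 to 1249 and a YAP-deleted range of 717 to 1453. The part of these genes, of depth and of the preparation in the spread of the endothelial transcripts was not tested.

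A wider endothelial list of 58 other genes, 57 of them tested, gave 0 genes past the threshold in either direction. LYT014 was highest for 23 of them (40.4%), beside the 9.26% of all genes given above. At an unadjusted p under 0.05 there were 2, both negative and both near 1 normalised count on average (Gja5 and Mmrn1). Its most abundant gene was Eng (endoglin, a co-receptor for BMP9 and BMP10). Eng had 21344, 23235, 23350 and 23461 in LYT004, LYT005, LYT015 and LYT017, and 21809 in LYT014. It had 30106, 27659 and 27151 in LYT006, LYT008 and LYT016, and 24103 in LYT013. The labelled groups of Eng did not overlap, beside 2.84% of all tested genes. Its difference was 0.26 ± 0.13 (limma adjusted p 0.649). Calcrl, the receptor that Ramp2 partners, was lowest in LYT013 (4267) and highest in LYT006 (14185), with 6805 in LYT005 and 11858 in LYT014. Per kilobase, the mean level of Eng was 6100 and that of Calcrl 2011. Sparcl1 and Ctsl completed the 4 most abundant genes of that list.

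Ligands for endothelial receptors spanned a wide range of level. Of 16 names 15 were tested and 0 passed. Angptl1 was at 0 in all 9 libraries, and Slit2 and Sema3c had means of 1.38 and 2.51. Cxcl12 had a mean of 112925 normalised counts, Gdf2 (BMP9) 40922, Bmp10 11368, Vegfc (the ligand of Flt4) 2681 and Adm (adrenomedullin, the ligand of the Ramp2 and Calcrl receptor) 1635. Sema3a (-0.36 ± 0.13) and Vegfb (0.32 ± 0.13) had the smallest unadjusted p among them (limma adjusted p 0.649 for both).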

How the data were processed

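Total RNA from sorted hepatic stellate cells was sequenced in 9 libraries, grouped by the genotype in the labels. Per the labels' protocols, poly-A and ribosomal depletion preparations are described, without saying which library had which. The submitters' processing notes list the tools bcl2fastq 2.20, kallisto 0.44.0 and sleuth and the builds GRCm38, mm10 and GRCh38 without a role. The authors deposited log2-like, variance-stabilised values in 35024 rows, of which 13872 stood at the lowest value of 4.96 in every library and 2 names listed more than once were dropped. How they were made: not given in the sources used here. All value columns mapped to a sample by library code (LYT013 from a column headed LYT013.1), and 0 were left unmapped. Inverting the transformation gave whole counts within 0.1 for 100% of values.

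Groups were compared with limma 3.58.1 (R 4.3.3) on the deposited log2-like values, with group as the only term, a mean-variance trend, two-sided p and Benjamini-Hochberg adjustment at 0.05, over genes that exceeded the lowest value in 4 or more libraries (in smaller fits, in as many as the smaller group holds). For genes with few counts, log2-like differences are smaller than true log2 changes. Count models were not run because the deposited unit is no count, but limma's voom weighting was run on the recovered counts. Counting intervals are exact 95% intervals on recovered counts and cover counting error only. Summaries used Python 3.11.15 with scipy 1.17.1 and pandas 2.3.3. Positions and exon lengths came from GENCODE M21 on GRCm38, which held 34802 of the names. The fit was tested on simulated counts with the same spread setting for all genes and changes only in genes at or above the median level. It therefore cannot show how well changes are found in the low, variable transcripts.

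Named with full values were Yap1, any listed transcript past the threshold, the 2 most abundant in each of 6 role groups, and up to 4 genes of the other lists by level or by p. Kdr, Stab2, Dnase1l3, Ptprb, Cdh5 and the other low transcripts, and Flt1, were added after their values were seen. The members and lists were chosen with earlier results of these data known. Alternatives covered filters, scaling, transformation, library weights, covariates, code ranges and each library left out; voom without LYT013 and LYT014 was added after seeing the data.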

Additional observations from a re-analysis of the deposited data

Results flagged for a closer look

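In 66 groups of values (33 genes in each label group, Yap1 included), 7 had a library farther from the others than Dixon's 95% critical value, and chance flags about 1 in 20 groups. Of the 7, 3 were LYT014, 1 was LYT013 and 3 were other libraries. Yap1 was flagged in both groups, at 618 normalised counts in LYT014 among the controls and at 2530 in LYT013 among the YAP-deleted libraries.

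Emcn, a sialomucin of the endothelial surface, was flagged in the control group at 19.3 in LYT014, where the other controls had 3.7 to 6.4. Sox17 was flagged there too, at 5.62 in LYT014 with the other controls at 0. Any count above 0 would have been flagged beside those zeros, and LYT014 had 7 recovered counts. Egfl7, a secreted endothelial factor, was flagged for its lowest control, LYT004 at 311, below 411 to 433 in the other controls.

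In the YAP-deleted group, Ehd3 was flagged at 62260 in LYT016, with the other 3 libraries at 31095 to 32170. Ptprb was flagged at 12.8 in LYT008, with the others at 104 to 129. No cause of these values was tested.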

How the results depend on the processing

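In each of 30 fits, 0 listed transcripts passed the threshold (smallest adjusted p 0.309, limma, Benjamini-Hochberg), and 0 genes of the wider endothelial list passed in the 23 alternatives to the 9-library fit. The median difference of the list lay between -0.29 and 0.26 over 22 alternatives, and its summed level in YAP-deleted over control between 1.13 and 1.29 over the 10 that left out libraries. Plvap and Ehd3 made up most of that sum. Without them, the mean sum in the 9 libraries was 10266 ± 2708 in control and 11671 ± 1065 in YAP-deleted. The 18 transcripts picked as highest in LYT014, a library labelled control, had 1747 ± 1766 and 952 ± 502. The signs of Ramp2, Pecam1, Esam, Tie1, Plvap, Ehd3, Flt1, Kdr and Ptprb held over 22 alternatives and that of Erg over 20, although sizes moved, for Erg from -0.13 to -1.82. The genes past the threshold over the whole table numbered 12 without LYT013 and LYT014, 9 with voom in those 7 libraries and 2 within codes 4 to 8, against 0 in the 9-library fit. The cause was not tested.

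Some differences changed sign, among them those of Stab2, Fcgr2b and Clec4g, which were -0.47, -0.31 and 0.32 with the 9 libraries. Without LYT013 and LYT014 the values were Tek 0.068, Maf 0.20, Sox18 0.099, Cdh5 0.19 and Dnase1l3 0.062. Within codes 4 to 8 they were Tek 0.22, Fcgr2b 0.019, Maf 0.28, Sox18 0.34, Stab2 0.23, Cdh5 0.51 and Dnase1l3 0.60. Cdh5 was 0.022 after quantile normalisation, and Cdh5 and Dnase1l3 were 0.25 and 0.13 as log2 of normalised count + 1, 0.29 and 0.20 with voom, and 0.052 and 0.080 with the code range as covariate. Maf was 0.0051 after median centring, 0.0054 with the macrophage marker mean as covariate and 0.27 with library weights, which also gave Clec4g -0.072. Leaving out 1 library at a time gave ranges of -0.0063 to 0.51 for Clec4g, -0.22 to 0.25 for Maf, -0.14 to 0.062 for Sox18, -0.36 to 0.30 for Cdh5 and -0.47 to 0.38 for Dnase1l3. The cause of these changes was not tested.

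No paired analysis was possible because the library codes serve as replicate numbers and the groups share none. Differences of transcripts below about 10 normalised counts (Emcn, Erg, Sox17 and Sox18) rest on few counts, and Bmx could not be tested.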

Other observations

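Some genes on none of the lists had profiles close to that of Kdr over the 9 libraries, given here as a description with no test. The closest were Kit (a stem cell factor receptor) and Dpp4 (a surface peptidase), each at a root mean square distance of 0.42 on the log2-like scale, then Slco2a1 (a prostaglandin transporter, 0.47), Cd55 (0.48) and Ly6a (0.49). The median over all 12651 genes compared was 0.99.

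The mean profile of the 19 listed transcripts with at least 100 normalised counts had other neighbours. Among 10154 genes of that abundance outside the list the closest were Noct (0.16), Pced1b (0.19), Tob1 (0.19), Plpp3 (0.19), Sucnr1 (0.20), Mylip (0.20), D830030K20Rik (0.21), Dapk2 (0.21), Btg1 (0.21) and Sema4d (0.21), with a median of 0.42 over all. Noct, a circadian phosphatase, had 2062 normalised counts in LYT004, 2074 in LYT005 and 3829 in LYT014, a much narrower range than Kdr.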
